A study of Homo sapiens with 10 samples.

Results

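The 8 genes described here encode enzymes that make, break down or interconvert proline, aspartate, glutamate and glutamine: PYCR1, ALDH18A1, PRODH, GOT1, GOT2, GPT2, GLUD1 and GLUL. They were taken by symbol from a read-count table of 22626 rows, in which each symbol had 1 row. The study asked how high glucose affects the retinal pigment epithelium (RPE), the cell layer behind the retina, and used ARPE-19 cells, an established human RPE line. The control group received 5.5 mM glucose with 32 mM mannitol, a sugar alcohol that balances the osmotic load (n = 5), and the HG group received 37.5 mM glucose, with no mannitol named in its label (n = 5), both for 48 h. Glucose and mannitol therefore changed together and cannot be told apart. ARPE-19 is a single line, so that every library shares 1 genetic background, and the methods speak of independent experiments for the study's data in general without naming separate cultures for the 5 sequencing libraries of a group, so that, as far as is stated, the p-values measure only the spread between these libraries. Control libraries carry replicate numbers, whereas HG libraries are named by their deposited column (HG_1 to HG_5), because the labels tie those columns to the group but not to single samples.

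Proline is built from glutamate. ALDH18A1 reduces glutamate to pyrroline-5-carboxylate, which PYCR1 reduces to proline in mitochondria, and PRODH runs the opposite way by oxidizing proline back to pyrroline-5-carboxylate. Aspartate and glutamate are exchanged by the aspartate aminotransferases GOT1 in the cytosol and GOT2 in mitochondria, which together with malate dehydrogenases carry reducing equivalents across the mitochondrial membrane. GPT2 is the mitochondrial alanine aminotransferase, GLUD1 interconverts glutamate and 2-oxoglutarate in mitochondria, and GLUL joins ammonia to glutamate to form glutamine. The RPE is known to use proline as a fuel and to release amino acids made from it to the retina.

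Total read counts were between 32448991 and 45864176 per library and the ranges of both groups overlapped. A count of 3, taken as the detection limit, corresponded to 0.0654 to 0.0925 CPM (counts scaled to a common library size). The labels were checked with 2 genes that glucose is known to induce: TXNIP was at 0.809 to 1.23 CPM in the control group and 5.38 to 12.9 CPM in the HG group, and ARRDC4 at 2.74 to 3.80 and 4.52 to 6.21 CPM, so that neither overlapped between the groups. Of 12 RPE markers, 4 (RPE65, TTR, TYR and CRX) stayed below 1 CPM in every library, although RPE65 and TYR define mature RPE. Among markers of other cell types, 4 of 5 endothelial genes (PECAM1, CDH5, VWF and TIE1), 3 of 5 immune genes (PTPRC, CD14 and CD3E), 4 of 6 Müller glia genes (SLC1A3, AQP4, GFAP and KCNJ10), 4 of 6 fibroblast genes (COL1A2, COL3A1, LUM and DCN) and 2 of 5 epithelial genes (CDH1 and EPCAM) stayed below 1 CPM in every library. The summed level of the epithelial list was lower in the HG group (3444 to 4915 CPM, control 5512 to 6923), where the keratins KRT7, KRT8 and KRT18 fell. That of the fibroblast list was lower too (105.4 to 131.2 CPM, control 206.2 to 254.4), where COL1A1 and PDGFRB fell. The sum of the RPE list was also lower in the HG group, without overlap (155.3 to 170.1 CPM, control 173.1 to 725.2), and PMEL fell. BEST1 alone was at 264.0 CPM in control replicate 1 and 551 CPM in control replicate 4. FTH1 overlaps BEST1 on the other strand, and its part in these values was not tested. The sum of the immune list was higher (105.4 to 149.0 CPM, control 60.6 to 88.6). CD68 rose, and CSF1R, the other gene of that list that reached 1 CPM, was at 4.86 CPM, control 6.57. Sums overlapped between the groups for Müller glia (5771 to 6757 CPM, control 5518 to 6006). They also overlapped for endothelium (2.13 to 3.01 CPM, control 2.93 to 5.05), where KDR fell. The part of these lists in the results was not tested. HG_1 and control replicate 2 stood apart from the other 8 libraries, since their counts rose with the GC content of the transcript by 0.188 and 0.170 on the log2 scale per 10 percentage points, against -0.0916 to -0.00519 in the others, and results that rest on them are given with and without them.

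Under high glucose, transcripts of the cytosolic aminotransferase GOT1 rose 1.53-fold and those of GLUD1 rose 1.16-fold, whereas ALDH18A1, which opens proline synthesis, fell 1.14-fold, a call near the threshold that several alternatives ended. GOT2, GPT2, GLUL and PYCR1 did not pass the test, although PYCR1 and GPT2 passed once trends with GC content and length were removed. PRODH was near the detection limit and was left out of this test by its filter on low counts. The tests used edgeR's quasi-likelihood method over 14936 rows, with p-values adjusted by the Benjamini-Hochberg procedure across the whole table and a threshold of 0.05. Of the 7 members tested 3 passed, against 15.4% of all rows; 2 were higher, against 7.62% of rows, and 1 was lower, against 7.8%. Values of these bulk samples are shares of each library's RNA, and a change in the share of cells that express a gene cannot be told apart from a change in RNA per cell.

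**Figure D1:**
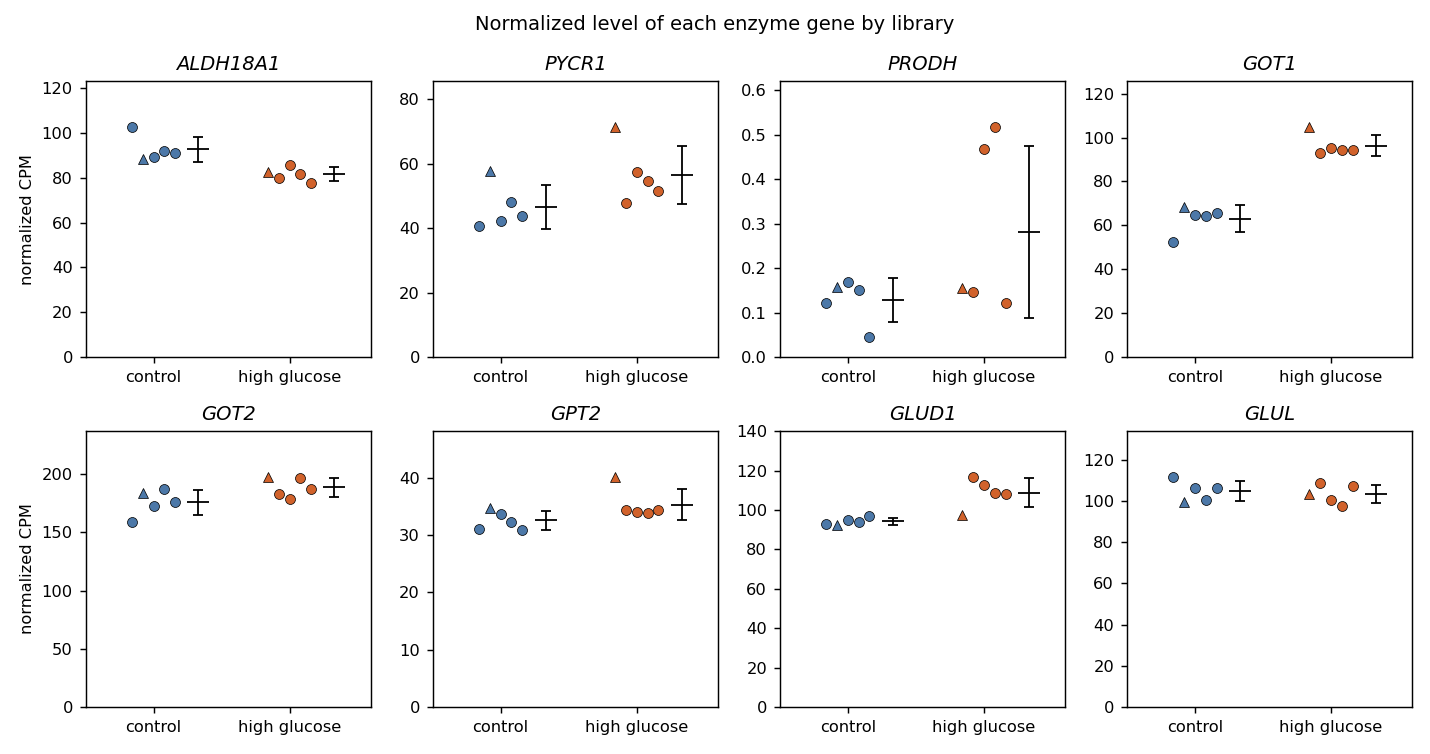
Normalized CPM (linear axis from 0, scaled separately for each gene) of the 8 enzyme genes in each library of the control group (blue) and the HG group (orange). Each point is 1 library, triangles are control replicate 2 and HG_1, and the black bars show the mean ± SD of 5 libraries; GOT1, GLUD1 and ALDH18A1 did not overlap between the groups.

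Compared per transcript length, by the deposited FPKM values (fragments scaled by transcript length and library size), GOT2 was the most abundant of the 8 in both groups, at 67.1 ± 4.17 FPKM (SD, n = 5) in the control group and 72.6 ± 2.62 in the HG group. In the control group it was followed by GOT1 at 29.4 ± 2.81, GLUD1 at 26.4 ± 0.975, ALDH18A1 at 25.6 ± 1.72 and PYCR1 at 21.8 ± 2.95 FPKM, 4 genes each of which overlapped with its neighbour among them. GLUL (14.1 ± 1.48) and GPT2 (7.52 ± 0.323 FPKM) were lower and overlapped with no neighbour, and PRODH was last at 0.0487 ± 0.0267 FPKM. In the HG group GOT1, at 45.2 ± 1.24 FPKM, no longer overlapped with GLUD1 at 31.3 ± 2.53, and PYCR1 (26.5 ± 3.25) stood ahead of ALDH18A1 (22.7 ± 0.929 FPKM), although the libraries of those 2 genes overlapped. GLUL at 14.4 ± 0.851, GPT2 at 8.21 ± 0.444 and PRODH at 0.133 ± 0.121 FPKM kept their places.

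GOT1, the cytosolic enzyme that makes aspartate from oxaloacetate or breaks it down, showed the change of largest size among the 7 members tested. Its normalized level was 52.4, 68.6, 64.6, 64.5 and 65.6 CPM in control replicates 1 to 5 and 104.8, 92.8, 95.2, 94.4 and 94.2 CPM in HG_1 to HG_5. Every HG library was above every control library, while control replicate 1 lay below the other controls and HG_1 above the other HG libraries. The means were 63.1 ± 6.24 and 96.3 ± 4.82 CPM (SD, n = 5 each), a log2 fold change of 0.61 (SE 0.0714, 95% interval 0.45 to 0.77, adjusted p = 0.000373 by edgeR). GOT1 was the only member past both the threshold and a fold change of 1.5, which 3.69% of all rows passed, and its difference passed the p threshold in each of the 10 fits that left out 1 library (0.55 to 0.64). The fold change of 1.5 was not reached without control replicate 1 (0.55) or without HG_1 (0.58), the libraries that lay apart.

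The gene lies on the minus strand of chromosome 10 (10: 99396870 to 99431569, GRCh38, GENCODE 29). Promoters, here the 250 bases before and 50 bases after a RefSeq start site (GRCh38.p14), were searched on both strands for the C/EBP-ATF response element (TGATGNAAN), which transcription factors of the amino acid response are known to bind, the cyclic AMP response element (TGACGTCA) and the AP-1 site (TGANTCA). An entry was found for 5 of the 8 members, with 6 promoters in all, while PYCR1, PRODH and GPT2 had none. Of these 6 promoters, that of GOT1 held a match and the other 5 held none of the 3 motifs. Among 35116 promoters of the same length 3.61% held the first motif, 1.85% the second and 7.71% the third. The share that held any of the 3 is not given, so that 1 match in 6 promoters cannot be read as more than the background. The promoter of GOT1 is shown with its match in capitals, that of GOT2 for comparison because it encodes the mitochondrial isozyme, and 1 of the 2 promoters of ASNS because it is the textbook carrier of the element; each is written 5′ to 3′ on the strand of the gene.
GOT1, chr10:99430575-99430874, minus strand: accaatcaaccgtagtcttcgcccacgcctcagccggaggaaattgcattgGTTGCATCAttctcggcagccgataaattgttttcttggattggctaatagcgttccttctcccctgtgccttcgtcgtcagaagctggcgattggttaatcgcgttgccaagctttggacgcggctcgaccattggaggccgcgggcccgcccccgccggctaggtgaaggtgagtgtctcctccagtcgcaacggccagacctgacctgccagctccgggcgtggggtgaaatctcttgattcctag
GOT2, chr16:58734267-58734566, minus strand: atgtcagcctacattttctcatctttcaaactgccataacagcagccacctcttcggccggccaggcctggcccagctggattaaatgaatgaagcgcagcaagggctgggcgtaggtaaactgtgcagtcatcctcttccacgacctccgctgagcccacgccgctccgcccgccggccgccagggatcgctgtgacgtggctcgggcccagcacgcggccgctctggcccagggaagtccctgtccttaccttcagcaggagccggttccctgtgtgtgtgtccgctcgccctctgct
ASNS, chr7:97872359-97872658, minus strand: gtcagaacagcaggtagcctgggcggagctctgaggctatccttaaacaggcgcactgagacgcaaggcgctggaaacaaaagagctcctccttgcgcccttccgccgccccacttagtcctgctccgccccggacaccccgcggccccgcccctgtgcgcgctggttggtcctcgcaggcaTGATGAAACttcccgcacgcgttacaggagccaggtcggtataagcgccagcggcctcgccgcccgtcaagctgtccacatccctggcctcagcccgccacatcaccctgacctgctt
In GOT1 the matching letters, printed in capitals, lie 199 to 191 bases before the start and form the motif when read on the opposite strand. In ASNS they lie 68 to 60 bases before the start, on the strand of the gene. The other promoter of ASNS and those of PSAT1, MDH1 and ALDH4A1, other genes of these pathways described further on, held none of the 3 motifs. A match describes the letters only and is not a measured binding site.

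GOT2, the mitochondrial partner of GOT1 (minus strand of chromosome 16, 16: 58707131 to 58734357), was at 158.6, 183.6, 173.1, 187.1 and 176.3 CPM in control replicates 1 to 5 and at 197.8, 183.3, 178.4, 196.7 and 187.7 CPM in HG_1 to HG_5. The groups overlapped, and the log2 difference of 0.10 (SE 0.0528, 95% interval -0.01 to 0.22) did not pass the test (adjusted p = 0.232, edgeR). AL391684.1 and AC092378.1, which overlap GOT1 and GOT2 on the other strand, had no row in the table, so that reads from them could have been counted with the gene that each overlaps. The difference between both isozymes was tested as the ratio of their counts within each library, which needs no normalization between libraries: the log2 ratio of GOT1 to GOT2 was -1.60 to -1.42 in the control group and -1.06 to -0.91 in the HG group. It rose by 0.51 (SE 0.0460, exact permutation test, two-sided p = 0.00794, adjusted p = 0.0238 over 6 gene pairs), where 0.00794 is the smallest p that 5 against 5 libraries allow. Expressed by FPKM, GOT1 made up 28.7% to 31.4% of both aspartate aminotransferase transcripts in the control group and 37.0% to 39.5% in the HG group.

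ALDH18A1, on the minus strand of chromosome 10 (10: 95605929 to 95656706), was at 102.5, 88.3, 89.2, 91.8 and 91.1 CPM in control replicates 1 to 5 and at 82.5, 79.8, 85.8, 81.8 and 77.8 CPM in HG_1 to HG_5. All HG libraries were below all control libraries, and control replicate 1 was well above the other controls. The means of 92.6 ± 5.72 and 81.5 ± 3.02 CPM gave a log2 fold change of -0.18 (SE 0.0511, 95% interval -0.30 to -0.07, adjusted p = 0.0340, edgeR). This call was near the threshold and was lost in 6 of the 10 fits that left out 1 library, namely control replicates 1, 4 and 5 and HG_2, HG_4 and HG_5, with adjusted p up to 0.0828 and values of -0.14 to -0.19, and also with library size alone as normalization (adjusted p = 0.0533) and with limma on log2(FPKM + 1) (adjusted p = 0.0642) or log2(FPKM + 0.1) (adjusted p = 0.0661).

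PYCR1, which completes proline synthesis (minus strand of chromosome 17, 17: 81932384 to 81942412), was at 40.8, 57.9, 42.1, 48.1 and 43.7 CPM in control replicates 1 to 5 and at 71.3, 47.7, 57.5, 54.7 and 51.5 CPM in HG_1 to HG_5. The highest value of each group was in the library with the GC trend, control replicate 2 and HG_1, and only HG_1 was above all controls. The means of 46.5 ± 6.92 and 56.6 ± 9.03 CPM differed by 0.28 on the log2 scale (SE 0.122, 95% interval 0.01 to 0.55), which did not pass (adjusted p = 0.158, edgeR). Without both of these libraries the difference was 0.28 and passed (adjusted p = 0.0176), as it did without control replicate 2 alone (0.37, adjusted p = 0.0417), and without HG_1 alone it was 0.19. MYADML2, which overlaps PYCR1 on the same strand, was at 0.304 and 0.274 CPM.

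**Figure D2:**
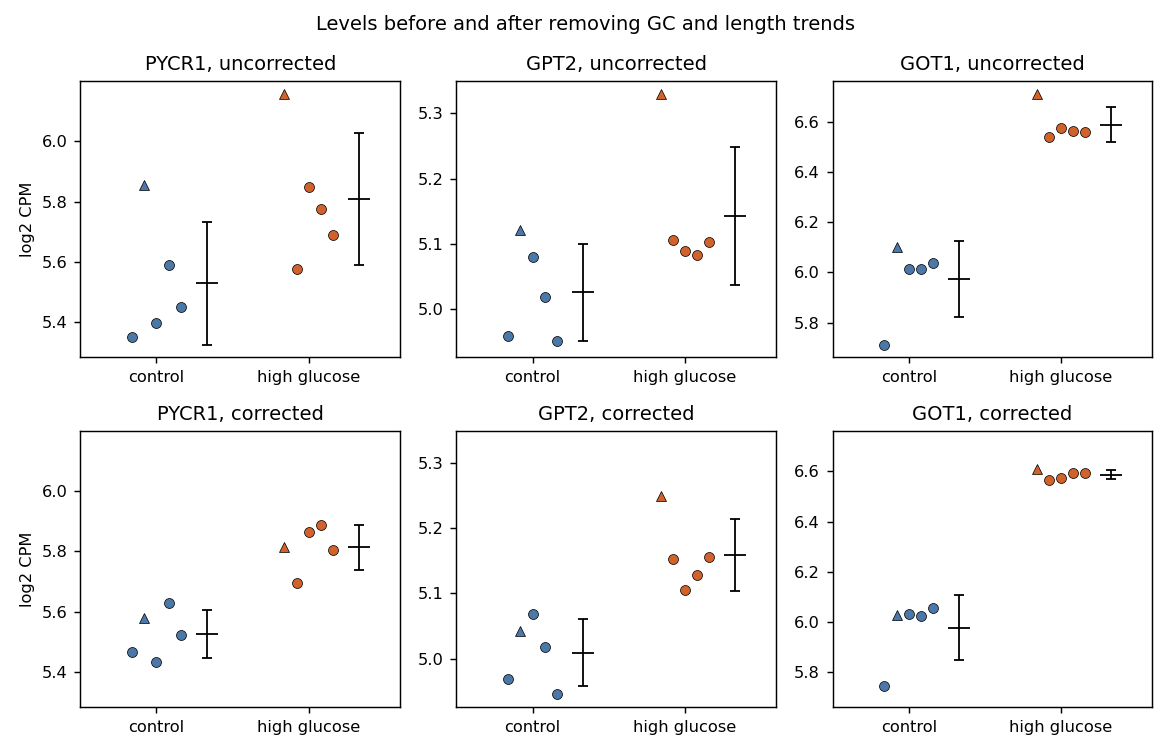
Log2 CPM of PYCR1, GPT2 and GOT1 in each library before (top) and after (bottom) the trends with transcript GC content and length were removed within each library; axes are shared within a column and do not start at 0. Points are libraries, triangles are control replicate 2 and HG_1, and black bars show the mean ± SD (n = 5); after the correction PYCR1 and GPT2 no longer overlapped between the groups.

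The GC content of the PYCR1 transcript is 61.8%. When the trends with GC content and transcript length were removed within each library, PYCR1 became less scattered, with an SD of 0.0793 in place of 0.203 (log2 CPM) in the control group and of 0.0746 in place of 0.219 in the HG group. The corrected values were 5.43 to 5.63 log2 CPM in the control group and 5.69 to 5.89 in the HG group and did not overlap, and the log2 difference of 0.29 passed (adjusted p = 0.000888, edgeR). With this correction 5 of the 7 members passed, against 29.3% of the 13538 rows with a known GC content: GOT1 (0.61), PYCR1, GLUD1 (0.19) and GPT2 (0.15, adjusted p = 0.0191) were higher and ALDH18A1 (-0.18, adjusted p = 0.0113) was lower.

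PRODH, which opens proline breakdown (minus strand of chromosome 22, 22: 18912777 to 18936553), was at 4, 7, 7, 5 and 2 counts in control replicates 1 to 5 and 6, 6, 21, 17 and 4 counts in HG_1 to HG_5, or 0.0449 to 0.168 and 0.122 to 0.517 CPM. HG_3 and HG_4 were above all other libraries, and the remaining 3 HG libraries lay within the control range. The gene did not pass the filter on low counts, and an exact permutation test of its log2 CPM gave a two-sided p of 0.214. DGCR6, which overlaps PRODH on the other strand, was at 1.94 and 2.09 CPM, and reads of overlapping genes cannot be told apart where counting ignores the strand, which no source used here states. The log2 ratio of PYCR1 to PRODH, 7.87 to 9.61 in the control group and 6.68 to 8.72 in the HG group, did not pass (difference -0.64, SE 0.523, exact permutation p = 0.270). Its size depended on the number added to the counts: with 5 in place of 0.5 the difference was -0.32 and did not pass.

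GLUD1, the glutamate dehydrogenase of mitochondria (minus strand of chromosome 10, 10: 87050486 to 87094866), was at 92.7, 92.4, 94.9, 93.7 and 97.2 CPM in control replicates 1 to 5 and at 97.5, 116.9, 112.9, 108.9 and 107.9 CPM in HG_1 to HG_5. The control libraries were close together, HG_1 lay just above the highest of them and the other 4 HG libraries lay well above. The means of 94.2 ± 1.96 and 108.8 ± 7.24 CPM gave a log2 fold change of 0.21 (SE 0.0505, 95% interval 0.10 to 0.32, adjusted p = 0.0183, edgeR). The call was kept in 9 of the 10 fits that left out 1 library and was lost without HG_3 (0.19, adjusted p = 0.0537). GLUD2, a copy of the gene, shares 13.6% of the 100-base stretches of GLUD1 and was at 1.15 and 1.51 CPM (0.39, adjusted p = 0.386), and since reads of both can be mixed and the way shared reads were assigned is not known, their part in the result was not tested. SHLD2, which overlaps GLUD1 on the other strand, was at 35.0 and 36.4 CPM (0.06, adjusted p = 0.739).

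GLUL, glutamine synthetase (minus strand of chromosome 1, 1: 182381704 to 182392206), was at 111.8, 99.6, 106.2, 100.5 and 106.3 CPM in control replicates 1 to 5 and at 103.4, 108.6, 100.5, 97.6 and 107.2 CPM in HG_1 to HG_5. The groups overlapped almost entirely, and the 95% interval of the log2 difference (-0.02, SE 0.0478) was -0.12 to 0.09 (adjusted p = 0.843, edgeR). GPT2, which forms alanine from glutamate and pyruvate (plus strand of chromosome 16, 16: 46884378 to 46931297), was at 31.0, 34.7, 33.8, 32.4 and 30.9 CPM and at 40.2, 34.4, 34.0, 33.8 and 34.3 CPM in the same order. HG_1 was the only HG library above all controls, and the difference of 0.12 (SE 0.0634, 95% interval -0.02 to 0.26) did not pass (adjusted p = 0.255, edgeR). Without HG_1 the GPT2 difference was 0.07 and did not pass, whereas with GC and length corrected it was 0.15 and passed (adjusted p = 0.0191).

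Whether the balance between neighbouring enzymes shifted was asked with the log2 ratio of their counts in each library, with p-values adjusted over 6 pairs, of which 4 are given. GLUD1 to GLUL was between -0.27 and -0.10 in the control group and between -0.08 and 0.17 in the HG group, without overlap, and rose (difference 0.23, SE 0.0570, exact permutation p = 0.00794, adjusted p = 0.0238), but computed from the deposited FPKM it did not pass (0.21, exact permutation test, adjusted p = 0.0952). GPT2 to GOT2 (0.01, SE 0.0548, exact permutation p = 0.810) did not pass. Among the aminotransferases, GOT1 differed from GOT2 in its change, while no difference of GPT2 from GOT2 was detected.

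**Figure D3:**
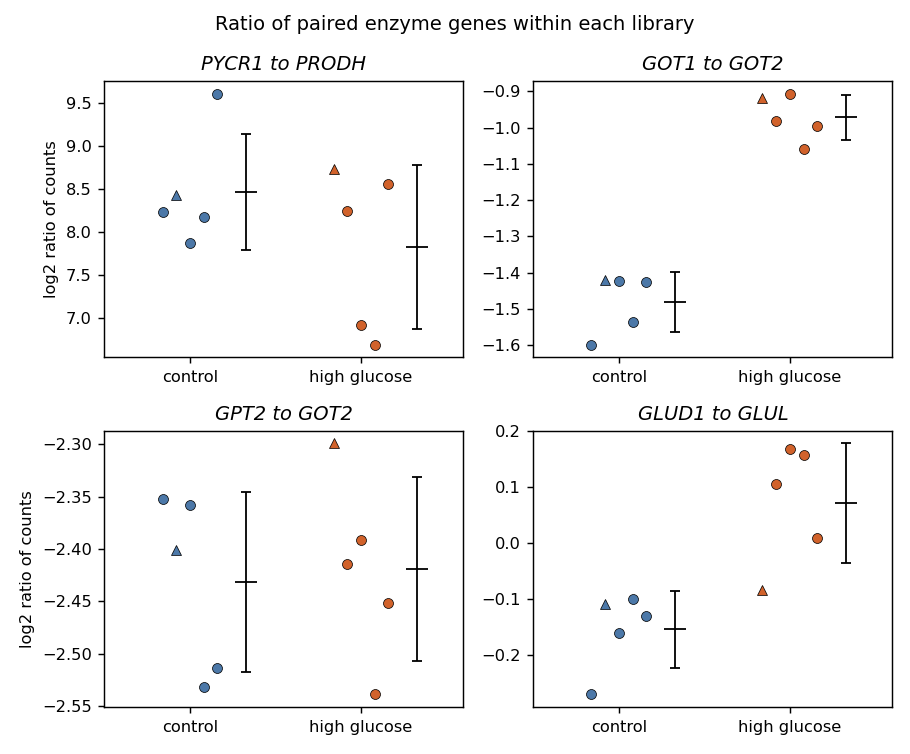
Log2 ratio of the counts of 2 genes within each library for 4 gene pairs, in the control group (blue) and the HG group (orange); each axis has its own range. Points are libraries, triangles are control replicate 2 and HG_1, and black bars show the mean ± SD (n = 5); GOT1 to GOT2 and GLUD1 to GLUL did not overlap between the groups.

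The other genes of these pathways were counted in 4 lists, which together held 58 genes of the table, 46 of them tested, of which 7 were higher, 1 was lower and 38 did not pass. The 8 called genes were 17.4% of those tested, near the 15.4% of all rows, and the median log2 fold change of the 46 was 0.07, against 0.00 over all rows. Values given for them are group means in normalized CPM, control first, and log2 fold changes. Of 9 proline genes tested, 1 rose and 1 fell (22.2%, against 15.4% of all rows), and without HG_2 only 1 passed; with GC and length corrected, 3 were higher and 1 was lower (44.4%, against 29.3%). OAT, which feeds ornithine carbon into pyrroline-5-carboxylate, rose from 139.0 to 162.2 CPM (0.22, adjusted p = 0.0185, edgeR), and ALDH4A1, which completes proline breakdown to glutamate, fell from 59.8 to 40.7 CPM (-0.55, adjusted p = 0.00143). ALDH4A1 was at 53.6 to 66.2 CPM in the control group and at 36.6 to 48.7 CPM in the HG group, without overlap. AL080251.1, which overlaps ALDH4A1 on the same strand, had no row, so that its reads could have been counted with ALDH4A1. PEPD (0.23, adjusted p = 0.106), which releases proline from dipeptides, the transporter SLC36A4 (0.21, adjusted p = 0.169) and the PYCR1 copy PYCR3 (-0.07, adjusted p = 0.782) did not pass. PEPD passed once GC and length were corrected (0.21, adjusted p = 0.0106, edgeR). PRODH2, which breaks down hydroxyproline, had no counts in any library.

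Of 13 aspartate and malate-aspartate shuttle genes tested, 3 rose and none fell (23.1%, against 15.4% of all rows called, 7.62% higher and 7.8% lower). With GC and length corrected, 3 were higher and 1, ADSS1, was lower (30.8%, against 29.3% of all rows). ASNS, which makes asparagine from aspartate and glutamine, was between 22.0 and 23.9 CPM in the control libraries and between 71.1 and 79.6 CPM in the HG libraries and rose (1.72, adjusted p = 3.62e-08, edgeR). MDH1, the cytosolic malate dehydrogenase that works next to GOT1, rose from 181.7 to 233.5 CPM (0.36, adjusted p = 0.000948), whereas the mitochondrial MDH2, next to GOT2, was at 202.3 and 223.9 CPM (0.15, adjusted p = 0.327), a pair set side by side after its values were seen and whose difference was not tested. NAT8L, which forms N-acetylaspartate, rose from 55.5 to 71.0 CPM (0.36, adjusted p = 0.00593). ADSS1, which uses aspartate in purine synthesis, was at 6.46 and 4.94 CPM (-0.38, adjusted p = 0.0675; corrected -0.40, adjusted p = 0.00532), and GOT1L1, a gene related to GOT1, had no counts.

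Of 17 glutamate and glutamine genes tested, 1 rose and 16 did not pass (5.88%, against 15.4% of all rows called); 3 passed without control replicate 2, and 2 without HG_3 or without HG_5. ALDH5A1, which acts in the breakdown of the glutamate product GABA, rose from 12.9 to 18.8 CPM (0.54, adjusted p = 0.00290, edgeR). The GABA transaminase ABAT (-0.43, adjusted p = 0.0536) and the glutamate transporter SLC1A1 (-0.39, adjusted p = 0.0636) were near the threshold with values below 0. With GC and length corrected, 5 of these 17 genes passed, 2 higher and 3 lower (29.4%, against 29.3% of all rows). ABAT and SLC1A1 were among the lower ones. GPT, the cytosolic copy of GPT2, was at 0.962 and 0.893 CPM (-0.11, adjusted p = 0.783).

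Of 7 other transaminases tested, 2 rose (28.6%, against 15.4% of all rows called and 7.62% higher); with GC and length corrected, 3 of 6 were higher (50%, against 29.3%). PSAT1, which passes the amino group of glutamate on in serine synthesis, rose from 71.6 to 170.1 CPM (1.25, adjusted p = 1.02e-07, edgeR), and KYAT3, a kynurenine aminotransferase, from 26.2 to 32.7 CPM (0.32, adjusted p = 0.00407). KYAT1 (0.25, adjusted p = 0.178) and BCAT2 (0.22, adjusted p = 0.288), which starts the breakdown of branched-chain amino acids, did not pass. BCAT2 passed once GC and length were corrected (0.22, adjusted p = 0.00544, edgeR). The log2 fold change of GOT1 lay between those of MDH1 and PSAT1.

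**Figure D4:**
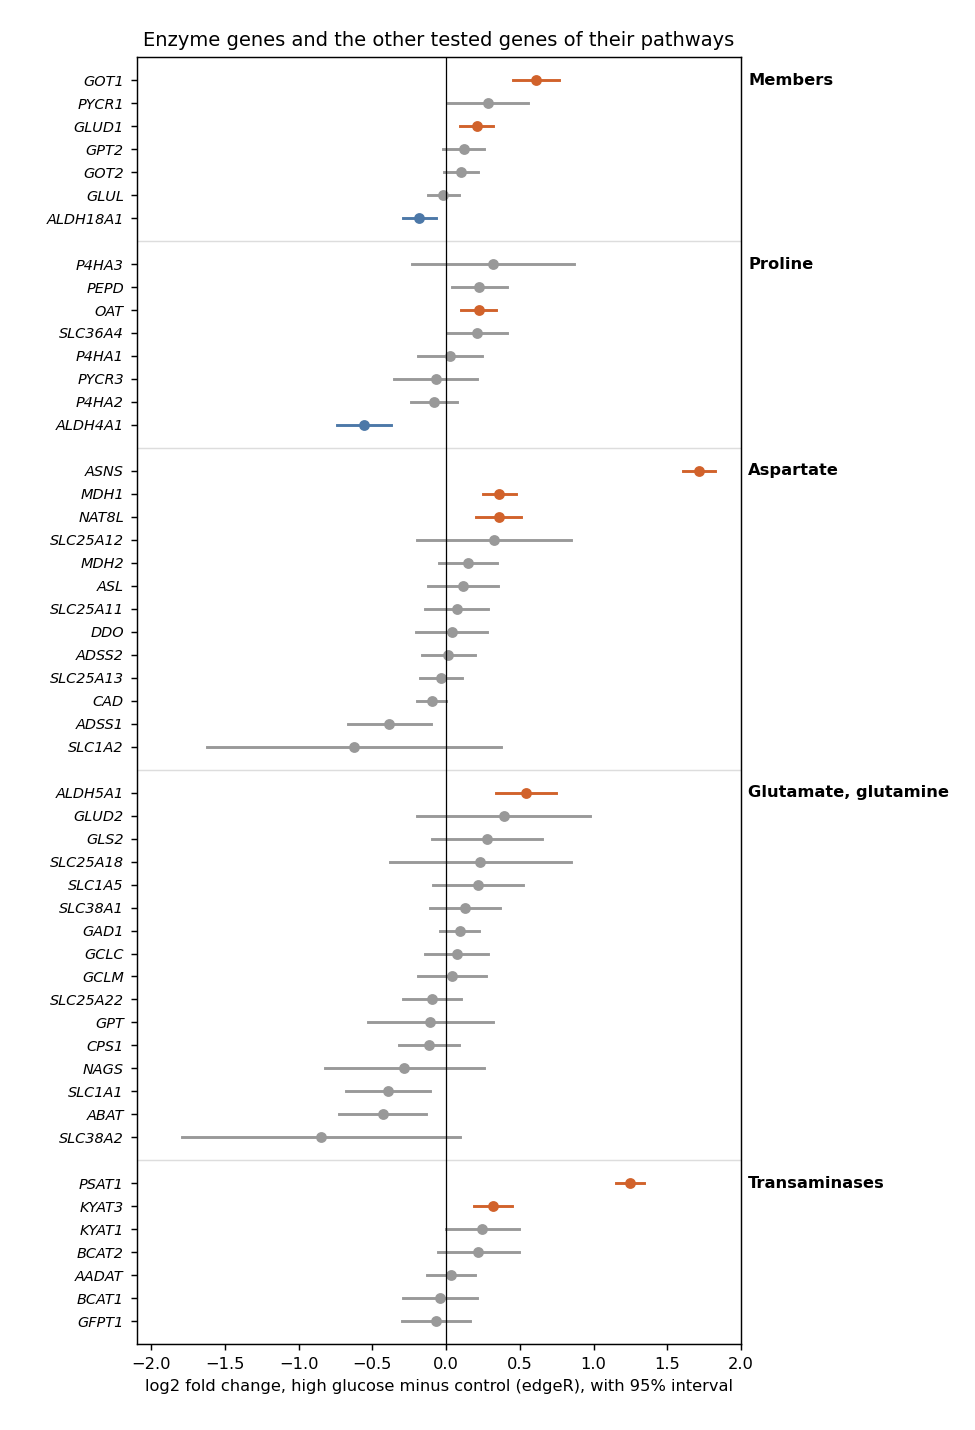
Log2 fold change of the HG group against the control group (edgeR, horizontal axis) with its 95% interval for the 7 members tested and 44 of the 46 other genes tested in the 4 lists, ordered by value within each list. Orange marks genes that were higher and blue genes that were lower at an adjusted p under 0.05, and grey the rest; ASNS (1.72) and PSAT1 (1.25) lie farthest to the right.

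Genes with a pattern like that of GOT1 were sought among 9982 genes with a mean of at least 10 CPM by the root mean square difference of their log2 CPM, relative to the control mean, over the 10 libraries. Those described here are CARS2, the mitochondrial cysteinyl-tRNA synthetase, at a difference of 0.0550 (137.3 and 205.1 CPM, 0.58), and the adenylate kinase AK5 at 0.0682 (16.7 and 24.8 CPM, 0.56). These distances describe the 10 libraries only, and they share the libraries in which GOT1 was measured. Over all rows tested, 13.6% had groups that did not overlap, against 3 of the 7 members.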

How the data were processed

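RNA-seq was done on ARPE-19 cells in 2 groups of 5. Per the labels, libraries were made with a VAHTS Universal V6 kit from Trizol RNA. The submitters' processing notes name fastp 0.20.1, HISAT2 2.2.1 and GRCh38; the counting program and annotation are not given in the sources used here. The authors deposited whole-number read counts per gene without normalization, and FPKM values that they had scaled by transcript length and depth. From the counts, edgeR 4.0.16 (R 4.3.3) was run with its default filter (14936 rows kept, 1311 of them unnamed assembled transcripts), TMM normalization and the quasi-likelihood test, with Benjamini-Hochberg adjustment over all rows. FPKM served for levels between genes. Gene pair ratios (0.5 added to counts) used exact permutation tests (SciPy 1.17.1) with adjustment over 6 pairs. GC and length trends were removed by lowess (span 0.3). Alternatives were DESeq2 1.42.0, other normalizations and filters, limma 3.58.1 on log2 FPKM, the GC correction and libraries left out. The steps were tested on simulated data.

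The members and the gene lists were chosen with earlier results of these data known. Text names the 8 members, the 4 genes of each list with the lowest adjusted p, near copies of members, and the 3 genes nearest in pattern to a member past the threshold and 1.5-fold; some of the genes and 2 of the pairs that this rule names are not reported here. MDH2 and overlapping genes were named after their values were seen. Detection limits cover counting error only.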

Additional observations from a re-analysis of the deposited data

Results flagged for a closer look

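In 4 of 28 sets of 5 values, 1 library lay farther from the others than Dixon's 95% limit allows, where chance gives about 1.4. ALDH18A1 read 102.5 CPM in control replicate 1, with the remaining controls at 88.3 to 91.8, with a gap of 0.754 of the range, and without this library its difference was -0.14 and did not pass (adjusted p = 0.0629, edgeR). GOT1 read 52.4 CPM in the same library, with the remaining controls at 64.5 to 68.6 (0.747), and without it its difference was 0.55 and passed. In HG_1, which carries the GC trend, GOT1 read 104.8 CPM, with the remaining HG libraries at 92.8 to 95.2 (0.801) and GPT2 at 40.2 CPM against 33.8 to 34.4 (0.915). The GPT2 difference without HG_1 was 0.07. With GC and length corrected, GOT1 in HG_1 was at 6.61 log2 CPM, with the remaining HG libraries at 6.57 to 6.59 (before, 6.71 and 6.54 to 6.57), and GPT2 in HG_1 was at 5.25 log2 CPM, with the remaining HG libraries at 5.11 to 5.16 (before, 5.33 and 5.08 to 5.11). GOT1 in control replicate 1 stayed apart, at 5.75 log2 CPM with the remaining controls at 6.02 to 6.05.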

How the results depend on the processing

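Over 9 alternatives and 10 fits that each left out 1 library, GOT1 and GOT2 kept their direction and their side of the threshold. The GC and length correction gave a call to PYCR1 (0.29) and GPT2 (0.15), raised the calls over the table from 2303 to 3968 and those among members from 3 to 5. Leaving out control replicate 2 and HG_1 together gave 4035 calls, PYCR1 at 0.28, and log2 ratios of 0.51 for GOT1 to GOT2 and 0.28 for GLUD1 to GLUL, each with an adjusted p of 0.0571; 4 against 4 libraries allow no exact p under 0.0286. ALDH18A1 lost its call with library size alone (-0.17) and with limma on log2(FPKM + 1) (-0.16) or log2(FPKM + 0.1) (-0.17); the cause was not tested. GLUD1 to GLUL was 0.21 from FPKM and did not pass; the ratio of count to FPKM of GLUL varied by 17.2% between libraries. GLUL, never past the threshold, was 0.024 and 0.026 with limma and 0.0040 without control replicate 1 and 0.00073 without HG_4. GPT2 to GOT2, also never past it, was -0.010 without both libraries, -0.0127 without control replicate 4, -0.0083 without control replicate 5 and -0.0177 without HG_1. Across the 9 alternatives the calls were 2 to 4 in the proline list (2 in the report), 3 to 5 in the aspartate list (3), 1 to 5 in the glutamate and glutamine list (1; 4 with DESeq2) and 2 to 3 among other transaminases (2), and with 1 library left out 1 to 3, 3 to 4, 1 to 3 and 2. No paired analysis was possible because the HG columns carry no numbers that the labels tie to control libraries. Leaving out 1 library each gave PYCR1 0.19 to 0.37, ALDH18A1 -0.20 to -0.14, GOT1 0.55 to 0.64, GOT2 0.07 to 0.13, GPT2 0.07 to 0.14, GLUD1 0.18 to 0.25, GLUL -0.037 to 0.0040, 1648 to 2993 calls over the table and 2 to 4 among members. For the ratios these ranges were 0.48 to 0.53 (GOT1 to GOT2), -0.018 to 0.042 (GPT2 to GOT2), 0.20 to 0.26 (GLUD1 to GLUL) and -0.86 to -0.35 (PYCR1 to PRODH). PRODH, fitted without the filter, was 1.12 with edgeR (adjusted p = 0.254). At 2 to 21 counts per library its depth limits what can be said.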
